A study of Mus musculus with 2 samples.

Results

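The genes described here are 10 components of the interleukin-17 (IL-17) program and of the receptors for IL-6 and IL-23. They were read by gene symbol from both deposited tables of a study of effector regulatory T cells, and are 10 of the 46398 distinct symbols in those tables. They were chosen by name with their levels in these same libraries already known, so their differences are a description. RNA sequencing compared 1 library of Nrn1-/- cells, which lack both copies of Nrn1, the gene for the cell surface protein neuritin, with 1 library of Nrn1+/- cells, which keep one copy. The title of the Nrn1+/- library calls it wild type, but its genotype label says heterozygous, so the comparison is null against heterozygous. All mice were C57BL/6 and carried the Foxp3DTRgfp allele, and cells were sorted as CD4+, CD25+, high for CD44 with an activated surface phenotype, and positive for the Foxp3 reporter. The sources used here do not give the age of the mice, the tissue of origin or the number of mice per library. With 1 library per genotype there is no replicate check, so no difference below has a p-value.

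IL-17A and IL-17F are secreted cytokines that act on epithelial and stromal cells and draw in neutrophils. They are made by T helper 17 (Th17) cells, by gamma-delta T cells and by innate lymphoid cells. In CD4 T cells the program is set up by IL-6, which signals through STAT3, and is maintained by IL-23. IL-22, a cytokine that acts on epithelia, is often made by the same cells, with help from the aryl hydrocarbon receptor. Some regulatory T cells also carry parts of this program.

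Il17a and Il17f are neighbours on chromosome 1 that face each other, with 42.6 kb and no other annotated protein-coding gene between them. The bases just before the transcription start are shown for these cytokine genes, the pair with the most negative log2 ratios of Nrn1-/- over Nrn1+/- among the 10, and for Il23r, whose difference was within counting error. They are also the 3 genes found with the motif marked below. Il17re, likewise within counting error, lacked it and is not shown. For Il17f the RefSeq start lies inside the gene span given further on, because GENCODE also lists a coding transcript that starts farther upstream, and the far end of the window overlaps an exon of it. Each run is the 250 bases before the RefSeq start on GRCm38.p6, 5′ to 3′ on the gene's strand, and capitals mark AGGTCA or its reverse complement, the core recognised by several nuclear receptors, the product of Rora among them.
Il17a, plus strand, chr1:20730655-20730904: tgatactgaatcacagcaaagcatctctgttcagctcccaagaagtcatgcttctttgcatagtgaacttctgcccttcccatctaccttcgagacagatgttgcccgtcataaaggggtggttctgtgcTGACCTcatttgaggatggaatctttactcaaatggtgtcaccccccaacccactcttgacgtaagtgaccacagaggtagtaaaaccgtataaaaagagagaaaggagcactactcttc
Il17f, minus strand, chr1:20784271-20784520: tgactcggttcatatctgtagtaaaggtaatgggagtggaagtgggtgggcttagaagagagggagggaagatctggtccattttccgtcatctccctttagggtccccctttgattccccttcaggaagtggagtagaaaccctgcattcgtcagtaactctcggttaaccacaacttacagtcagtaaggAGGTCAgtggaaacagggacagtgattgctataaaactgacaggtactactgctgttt
Il23r, minus strand, chr6:67491856-67492105: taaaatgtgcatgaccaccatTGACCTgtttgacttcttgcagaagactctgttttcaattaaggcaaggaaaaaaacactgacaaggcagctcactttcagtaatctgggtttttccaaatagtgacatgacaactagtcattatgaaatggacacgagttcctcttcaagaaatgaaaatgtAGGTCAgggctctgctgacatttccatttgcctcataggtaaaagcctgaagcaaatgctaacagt
Read on both strands, AGGTCA was found once before Il17a, 120 to 115 bases ahead of the start, and once before Il17f, 58 to 53 bases ahead. It was found at 2 places before Il23r, 229 to 224 and 66 to 61 bases ahead. RefSeq windows were found for 7 of the 10 genes, and those of Il22, Il17re, Il6ra and Il6st held no AGGTCA. Of 32851 promoter windows of the same length, 14.0% held it. Of the other motifs searched, GCGTG, the core bound by the aryl hydrocarbon receptor, and the STAT motif TTCNNNGAA were in none of the 7 windows, against 28.2% and 7.02% of all windows. The AP-1 motif TGANTCA was in 1 of them, Il17a, against 6.75%. The matches did not overlap. A match is only a run of letters, and binding was not measured.

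Levels are in FPKM, which counts sequenced fragments per kilobase of transcript and scales them to depth, so levels of different genes can be compared. From the spacing of low values, 1 fragment on 1 kb was worth 0.0251 FPKM for Nrn1-/- cells and 0.0189 FPKM for Nrn1+/- cells. Fragment numbers and 95% intervals below follow from these steps and the longest annotated coding transcript. They cover counting error only, and PCR copies of a molecule cannot be told from separate molecules. As a check of the labels, Nrn1 was at 4.62 FPKM in Nrn1-/- cells and 66.5 FPKM in Nrn1+/- cells. The sorted phenotype was present in both, with Foxp3 at 195 and 257 FPKM, Il2ra at 564 and 601 FPKM, Cd4 at 155 and 161 FPKM, and Cd44 at 80.5 and 62.4 FPKM in Nrn1-/- and Nrn1+/- cells.

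All 10 genes were detected in both libraries, over a wide span of levels that fell in the same order in each. Il12rb1 was highest, at 82.1 FPKM in Nrn1-/- cells and 67.4 FPKM in Nrn1+/- cells, followed by Il17ra, Il6st, Il17a, Il6ra, Il17f, Ahr, Il22, Il23r and Il17re. Il17re was lowest, at 0.934 FPKM in Nrn1-/- cells and 0.783 FPKM in Nrn1+/- cells. The counting intervals of the last 3 genes overlapped from each to the next in the Nrn1-/- library. In the Nrn1+/- library Il23r and Il17re had separate intervals, as did Il22 and Il23r, while those of Il17ra and Il6st overlapped. The receptor chains for IL-17, IL-6 and IL-23 that are shared by several cytokines were thus among the more abundant of the 10 transcripts, and the chains specific to IL-23 (Il23r) and IL-17C (Il17re) were near 1 FPKM.

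**Figure D1:**
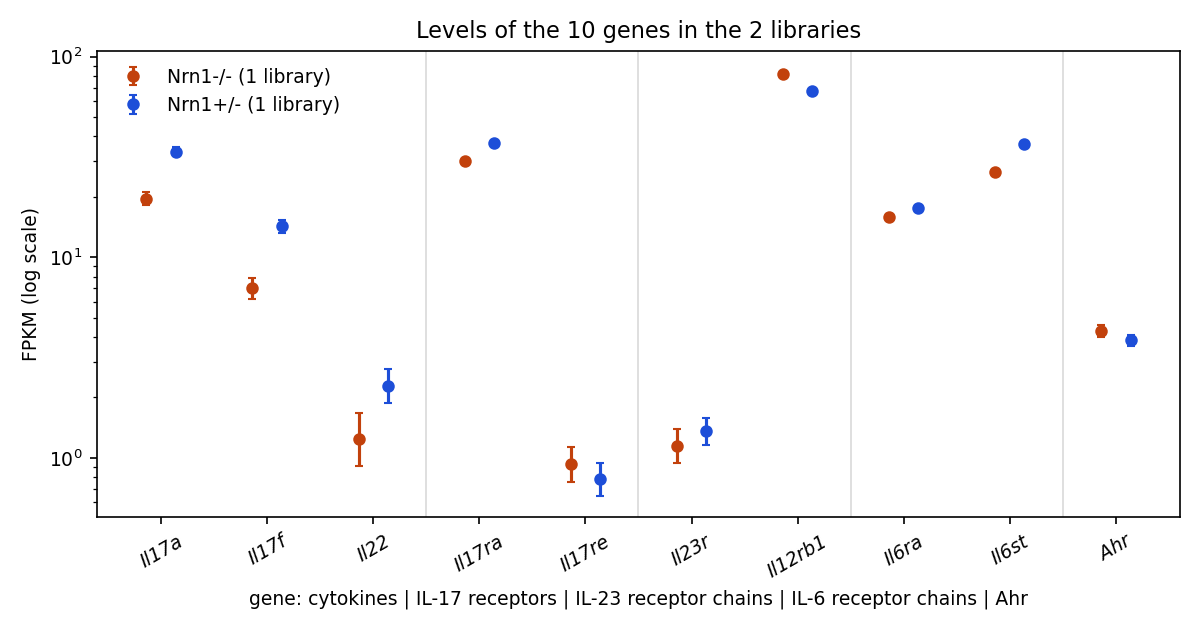
FPKM on a log axis for the 10 genes, 1 point per library, Nrn1-/- on the left and Nrn1+/- on the right of each pair, with bars for the 95% Poisson interval of the fragment count (bars smaller than a point are hidden). The 3 cytokine genes are lower in the Nrn1-/- library by more than their bars, and Il12rb1 is higher at 82.1 against 67.4 FPKM. The bars of Il17re, of Il23r and of Ahr overlap between libraries.

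The 3 cytokine genes had the lowest FPKM ratios of the 10, and all were lower in Nrn1-/- cells. This order is of ratios: in FPKM itself Il12rb1 differed most, and the wide interval of Il22 reaches the ratio of Il6st. Il17a (ENSMUSG00000025929.4, GRCm38 chromosome 1, 20730905 to 20734496, plus strand, 1 annotated transcript) was at 19.6 FPKM in Nrn1-/- cells, about 758 fragments, and 33.6 FPKM in Nrn1+/- cells, about 1693 fragments. It stood at 58.2% of the Nrn1+/- level, with a counting interval for the FPKM ratio of 0.534 to 0.635. Il17f (ENSMUSG00000041872.8, chromosome 1, 20777146 to 20790617, minus strand, 4 transcripts) was at 7.02 FPKM in Nrn1-/- cells, about 274 fragments, and 14.3 FPKM in Nrn1+/- cells, about 724 fragments. That is 49.2% of the Nrn1+/- level, with an interval of 0.426 to 0.566. Both genes were thus lower by more than counting error, while variation between mice was not measured.

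Il22 (ENSMUSG00000074695.3, chromosome 10, 118204942 to 118210047, plus strand, 1 transcript) was a much rarer transcript. It was at 1.24 FPKM in Nrn1-/- cells, about 45 fragments, and 2.28 FPKM in Nrn1+/- cells, about 107 fragments. The FPKM ratio of 0.546 had a wide interval, 0.376 to 0.780. Il22 has a near-identical duplicate, Iltifb, at 0.102 FPKM in Nrn1-/- cells and 0.119 FPKM in Nrn1+/- cells, and the sources used here do not say how reads shared by the duplicates were counted. With a pseudocount of 5 FPKM its log2 ratio was -0.22. Together the 6 IL-17 family ligand genes summed to 27.7 FPKM in Nrn1-/- cells and 48.8 FPKM in Nrn1+/- cells, nearly all of it Il17a and Il17f. Il17c and Il17d stayed under 1 FPKM in both libraries, and Il17b and Il25 were listed at 0.

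For all genes, the log2 ratio of Nrn1-/- over Nrn1+/- was taken after adding a pseudocount of 1 FPKM, which understates differences of rare transcripts. Among 12344 genes averaging 1 FPKM or more, 5.27% were at least 1.5-fold lower and 7.5% at least 1.5-fold higher on that scale; among protein-coding genes alone these shares were 3.69% and 7.01%. Of the 10 genes, 9 passed the minimum, Il17re being the exception. Il17f (log2 ratio -0.93) and Il17a (-0.75) were at least 1.5-fold lower, and none was 1.5-fold higher. Il22 (-0.55) lay just short of 1.5-fold, although its FPKM without the pseudocount differed by 1.83-fold. At 2-fold, which 1.11% of genes reached downward and 1.98% upward (0.262% and 1.21% of protein-coding genes), none of the 9 was counted, and Il17f, at 2.03-fold in FPKM, missed it through the pseudocount. Nothing is read from these counts, since the choice of genes used this contrast. The median log2 ratio was -0.29 over the 9 genes, -0.21 over all 10, and 0.02 over all genes tested.

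**Figure D2:**
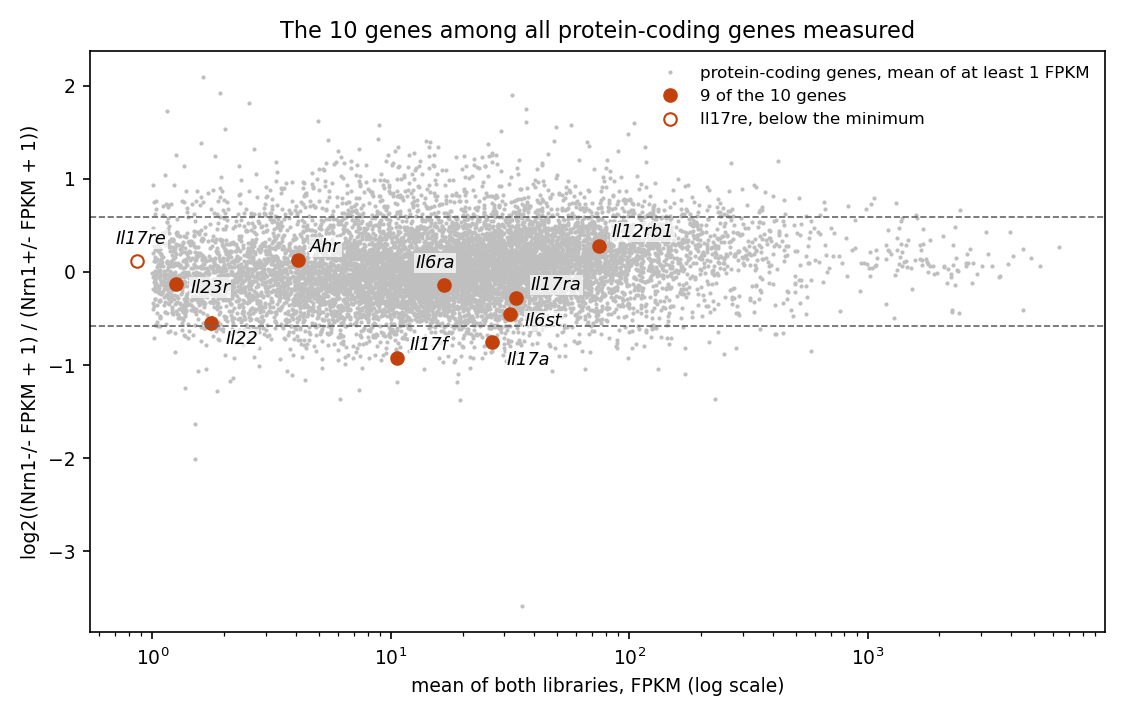
Log2 ratio of Nrn1-/- over Nrn1+/- FPKM, each plus 1, against the mean FPKM of both libraries on a log axis, for protein-coding genes (grey) and the 10 genes (orange; Il17re, open, is below the minimum mean). Dashed lines mark 1.5-fold, and Il17f at -0.93 and Il17a at -0.75 are the genes of the 10 below the lower line.

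The IL-17 receptor genes differed less. Il17ra (ENSMUSG00000002897.4, chromosome 6, 120463247 to 120487559, plus strand), the chain common to most receptors of the family, was at 30.2 FPKM in Nrn1-/- cells and 37.0 FPKM in Nrn1+/- cells. The log2 ratio was -0.29, and the FPKM ratio of 0.816 had a counting interval of 0.795 to 0.837. Il17re (ENSMUSG00000043088.15, chromosome 6, 113458484 to 113470758, plus strand, 9 transcripts), which pairs with IL-17RA to bind IL-17C, gave an FPKM ratio of 1.19 on about 102 and 113 fragments in Nrn1-/- and Nrn1+/- cells. Its interval, 0.904 to 1.57, included equal levels, so no difference was detectable at this depth. Il17rc, the partner chain for IL-17A and IL-17F, was at 0.161 FPKM in Nrn1-/- cells and 0.218 FPKM in Nrn1+/- cells. Il17rb, a chain of the IL-25 receptor, was at 2.16 and 2.39 FPKM, and Il17rd at 0.0687 and 0.0999 FPKM in Nrn1-/- and Nrn1+/- cells. The common chain was thus well expressed, while the chain that completes the receptor for IL-17A and IL-17F was rare in both libraries.

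The chains of the IL-23 receptor ran in different directions. Il23r (ENSMUSG00000049093.9, chromosome 6, 67422932 to 67491855, minus strand, 1 transcript), the chain that binds IL-23 itself, was at 1.15 FPKM in Nrn1-/- cells, about 105 fragments, and 1.36 FPKM in Nrn1+/- cells, about 163 fragments. The FPKM ratio of 0.848 had an interval of 0.657 to 1.09, so no difference was detectable at this depth. Il12rb1 (ENSMUSG00000000791.8, chromosome 8, 70808449 to 70821424, plus strand), the chain shared by the IL-12 and IL-23 receptors, was at 82.1 FPKM in Nrn1-/- cells and 67.4 FPKM in Nrn1+/- cells. Its log2 ratio of 0.28 was the highest of the 10, short of 1.5-fold, with an interval for the FPKM ratio of 1.18 to 1.25. It turned to -0.01 when each library was rescaled to the same sum over all rows. Il12rb2, the IL-12 specific chain and the nearest protein-coding neighbour of Il23r, was at 7.21 FPKM in Nrn1-/- cells and 7.70 FPKM in Nrn1+/- cells. Il12rb1 exceeded Il23r 71.3-fold in Nrn1-/- cells and 49.7-fold in Nrn1+/- cells, a contrast within a library that no scaling of whole libraries can alter.

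Of the ligands for these receptors, Il12a was at 0.532 FPKM in Nrn1-/- cells and 0.126 FPKM in Nrn1+/- cells, and Il23a at 0.260 and 0.117 FPKM in that order. Il12b, which encodes the subunit common to IL-12 and IL-23, was listed at 0 in both libraries. Ebi3, the subunit that IL-27 and IL-35 have in common, was at 15.8 FPKM in Nrn1-/- cells and 12.8 FPKM in Nrn1+/- cells. Transcripts for the subunits of IL-23 were thus rare or not detected in these cells.

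The IL-6 receptor genes were both lower in Nrn1-/- cells. Il6st (ENSMUSG00000021756.11, chromosome 13, 112464070 to 112510086, plus strand, 10 transcripts) encodes gp130, the signalling chain of the whole IL-6 family. It was at 26.6 FPKM in Nrn1-/- cells and 36.7 FPKM in Nrn1+/- cells, a log2 ratio of -0.45, and the FPKM ratio of 0.726 had an interval of 0.708 to 0.745. Il6ra (ENSMUSG00000027947.10, chromosome 3, 89864059 to 89913196, minus strand), the chain that binds IL-6, was at 15.9 FPKM in Nrn1-/- cells and 17.6 FPKM in Nrn1+/- cells. Its log2 ratio was -0.14, with an interval for the FPKM ratio of 0.871 to 0.934. Gp130 transcript thus differed more than that of the IL-6 binding chain. Il27ra, which pairs with gp130 to bind IL-27, was at 53.7 FPKM in Nrn1-/- cells and 55.7 FPKM in Nrn1+/- cells. Il11ra1, the chain that binds IL-11 beside gp130, was at 3.41 FPKM in Nrn1-/- cells and 3.97 FPKM in Nrn1+/- cells. Lifr, Osmr and Cntfr, partners of gp130 for further cytokines of the family, were under 0.05 FPKM or listed at 0.

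Ahr (ENSMUSG00000019256.16, chromosome 12, 35497974 to 35535038, minus strand, 3 transcripts), the ligand-activated transcription factor named above, was at 4.28 FPKM in Nrn1-/- cells and 3.85 FPKM in Nrn1+/- cells. Its FPKM ratio of 1.11 had a counting interval of 1.02 to 1.22. Its log2 ratio was 0.12 as deposited and -0.12 after rescaling to the same sum over all rows. Its partner Arnt was at 22.6 FPKM in Nrn1-/- cells and 27.9 FPKM in Nrn1+/- cells. Among genes known to be induced by the receptor, Cyp1a1 was at 1.11 and 0.998 FPKM, Tiparp at 4.02 and 4.60 FPKM, and Ahrr at 0.629 and 0.663 FPKM in Nrn1-/- and Nrn1+/- cells. Of further induced genes, Nqo1 was at 1.26 FPKM in Nrn1-/- cells and 1.84 FPKM in Nrn1+/- cells, and Cyp1b1 at 0.0865 and 0.205 FPKM, below the minimum mean. None of the targets above that minimum passed 1.5-fold.

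The direction of the smaller differences depended on scaling. As deposited, 7 of the 10 genes were lower in Nrn1-/- cells and Il12rb1, Ahr and Il17re were higher. This split was kept with upper-quartile scaling, with centring on the median of all genes, and with equal sums over protein-coding rows, but with equal sums over all rows all 10 were lower. Equal sums over protein-coding rows moved the median log2 ratio of all genes by -0.12, and equal sums over all rows by -0.27. By 1.5-fold, 1254 genes were lower and 659 higher with the protein-coding sums and 2179 lower and 408 higher with the sums over all rows, against 651 lower and 926 higher as deposited. Il17a and Il17f were at least 1.5-fold lower under all 4 scalings. Ratios between genes in a library are free of this choice. Il17a was at 0.101 times the level of Foxp3 in Nrn1-/- cells and 0.131 times in Nrn1+/- cells, and Il17f at 0.0360 and 0.0555 times in that order. Il17a exceeded Il17f 2.79-fold in Nrn1-/- cells and 2.36-fold in Nrn1+/- cells.

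**Figure D3:**
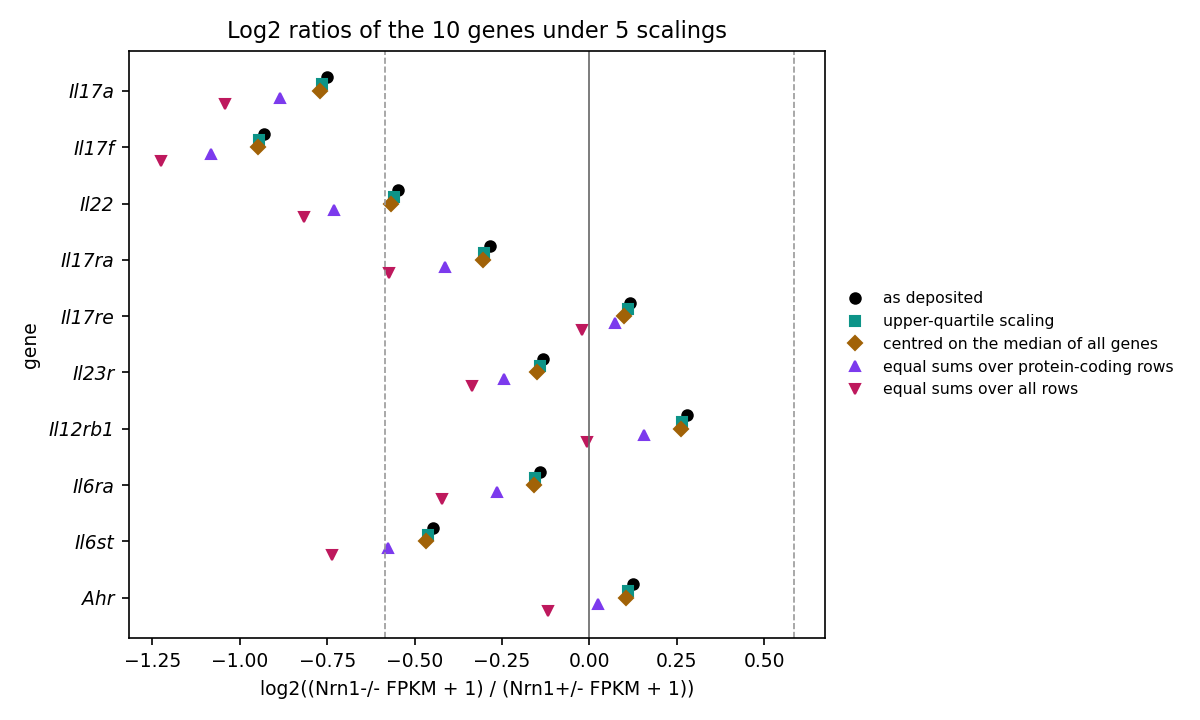
Log2 ratio of Nrn1-/- over Nrn1+/- for each of the 10 genes as deposited and under 4 other scalings of the libraries. Dashed lines mark 1.5-fold; Il17a and Il17f lie beyond the lower line under every scaling shown, while Il12rb1, Ahr and Il17re cross 0 with equal sums over all rows.

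The surrounding pathway was described with 10 gene lists, chosen with earlier results of these data known. Outside the 10 genes they held 81 genes averaging 1 FPKM or more, of which 27 were higher and 54 lower in Nrn1-/- cells. Over all genes tested, 52.3% were higher and 47.7% lower. Of the 81, 3 (3.70%) passed 1.5-fold upward and 6 (7.41%) passed it downward. These shares were 7.5% and 5.27% over all genes, and 7.01% and 3.69% over protein-coding genes alone. These counts are a description and were not tested. Their median log2 ratio was -0.15, against 0.02 over all genes tested.

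Th17 transcription factors were split, with 7 higher and 10 lower of 17, Ahr being among the higher (median -0.11). With equal sums over all rows 3 were higher and 14 lower, but that scaling put the median of all genes tested at -0.25. Rora, a nuclear receptor that binds the AGGTCA core, was at 4.91 FPKM in Nrn1-/- cells and 10.01 FPKM in Nrn1+/- cells, a log2 ratio of -0.90. Nfkbiz, an atypical IkB protein needed for full Th17 development in mice and also counted with the IL-17 receptor pathway, was at 26.7 FPKM in Nrn1-/- cells and 41.2 FPKM in Nrn1+/- cells. Batf, which opens chromatin at the Il17 genes, went the other way at 212 FPKM in Nrn1-/- cells and 147 FPKM in Nrn1+/- cells, and so did its partner Irf4, at 142 and 110 FPKM, neither by 1.5-fold. Il17f stood at 1.43 times the level of Rora in each library. Il17a stood at 3.99 times the level of Rora in Nrn1-/- cells and 3.36 times in Nrn1+/- cells. The part of Rora in either difference was not tested.

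The list of other Th17 associated genes had 5 higher and 10 lower of 15 (median -0.20). The 10 lower became 11 and 13 with equal sums over protein-coding and over all rows. Those scalings put the median of all genes tested at -0.10 and -0.25. Ccl20, the chemokine ligand of CCR6, was at 44.4 FPKM in Nrn1-/- cells and 75.9 FPKM in Nrn1+/- cells, and Cxcr6, a chemokine receptor, was at 13.7 and 22.1 FPKM in that order. Ccr6, the chemokine receptor typical of Th17 cells, was at 17.1 FPKM in Nrn1-/- cells and 17.7 FPKM in Nrn1+/- cells. Cd5l, a lipid-metabolism regulator known from macrophages and from Th17 cells in mice, was at 2.98 FPKM in Nrn1-/- cells and 0.680 FPKM in Nrn1+/- cells, the one gene of the list beyond 1.5-fold higher. Il1r1, the IL-1 receptor that promotes IL-17 production, was at 0.736 FPKM in Nrn1-/- cells and 1.55 FPKM in Nrn1+/- cells.

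Of 16 genes of JAK-STAT3 signalling, 5 were higher and 11 lower (median -0.16). When sums over all rows were made equal, 2 were higher and 14 lower, 5 of them beyond 1.5-fold lower. Under that scaling 2179 of all 12344 genes tested were at least 1.5-fold lower, and the median log2 ratio of all genes tested was -0.25. Stat3, the factor through which IL-6 and IL-23 act, was at 130 FPKM in Nrn1-/- cells and 156 FPKM in Nrn1+/- cells. Socs3, a STAT3-induced inhibitor that binds gp130, was at 56.8 FPKM in Nrn1-/- cells and 79.4 FPKM in Nrn1+/- cells. Ptpn6, the phosphatase SHP-1, was at 113 FPKM in Nrn1-/- cells and 74.7 FPKM in Nrn1+/- cells, and was the one member beyond 1.5-fold, by a margin lost with each other scaling. IL-17 receptor signalling had 4 higher and 12 lower of 16 (median -0.21), with Nfkbiz alone beyond 1.5-fold. With equal sums over all rows 2 were higher and 14 lower, 5 of them beyond 1.5-fold, beside the same 2179 of 12344 over all genes. Traf3ip2, the adaptor Act1, was at 12.02 FPKM in Nrn1-/- cells and 14.8 FPKM in Nrn1+/- cells.

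Of the IL-6 family ligands and receptors other than Il6ra and Il6st, 1 was higher and 4 lower of 5 measured (median -0.17). Clcf1, a cytokine of the IL-6 family, was at 17.5 FPKM in Nrn1-/- cells and 28.6 FPKM in Nrn1+/- cells and was the one beyond 1.5-fold. Lif, another, was at 30.1 FPKM in Nrn1-/- cells and 22.3 FPKM in Nrn1+/- cells. Of the IL-22 and IL-10 receptor list, without the member Il22, all 3 measured genes were lower (median -0.51). They included Il10ra, the IL-10 binding chain, at 20.4 FPKM in Nrn1-/- cells and 31.5 FPKM in Nrn1+/- cells. Il10rb, the chain that IL-10 and IL-22 receptors have in common, was at 27.9 FPKM in Nrn1-/- cells and 38.4 FPKM in Nrn1+/- cells, and Il20rb at 1.35 and 2.33 FPKM. Il22ra1, the chain that makes cells responsive to IL-22, was listed at 0 in both libraries. The aryl hydrocarbon receptor list had 6 higher and 4 lower of 10, counting Ahr itself among the higher (median 0.10). With equal sums over all rows, where the median of all genes tested was -0.25, 3 were higher and 7 lower. As deposited, the gene of this list beyond 1.5-fold was Hsp90aa1, at 341 FPKM in Nrn1-/- cells and 186 FPKM in Nrn1+/- cells. It encodes a chaperone that holds the receptor in the cytoplasm.

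**Figure D4:**
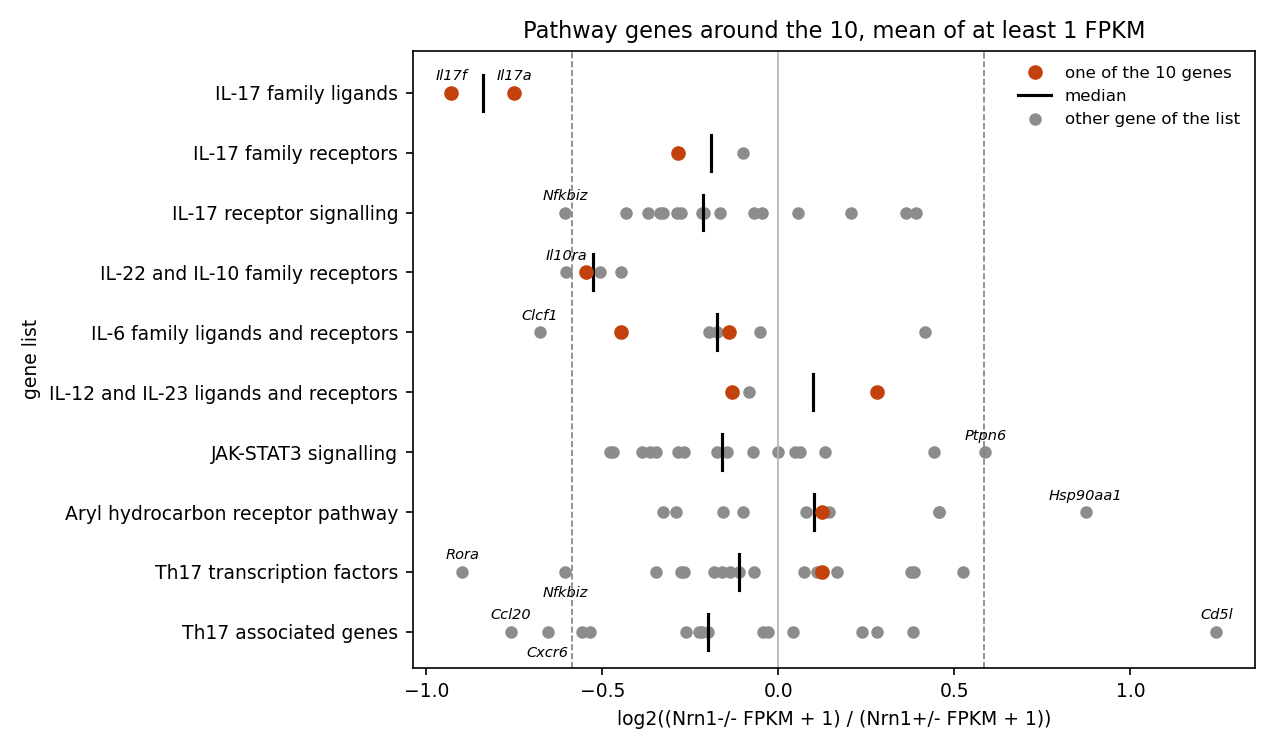
Log2 ratio of Nrn1-/- over Nrn1+/- FPKM, each plus 1, for every gene averaging 1 FPKM or more in 10 pathway lists. Orange points belong to the 10 genes, black ticks are list medians and dashed lines mark 1.5-fold; genes beyond it are named, with Il17f at -0.93 and Rora at -0.90 the lowest and Cd5l the highest.

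Other cells can make IL-17 and IL-22, so markers of such cells were read beside these results. All 11 gamma-delta T cell markers on the list were above 0 in both libraries and summed to 20.8 FPKM in Nrn1-/- cells and 24.1 FPKM in Nrn1+/- cells, with 5 of them under 1 FPKM in both. Of the 6 measured above the minimum mean, 1 was higher and 5 lower, with a median log2 ratio of -0.28. The median was -0.29 for the 9 genes above, among which Il17a was at -0.75, Il17f at -0.93 and Il22 at -0.55. It was -0.33 for 9 markers of effector regulatory T cells, Foxp3 among them, of which 1 was higher and 8 lower. The gamma chain segments did not all differ in the same direction. Tcrg-V6, a variable segment below the minimum mean, was at 0.145 FPKM in Nrn1-/- cells and 0.833 FPKM in Nrn1+/- cells. Tcrg-V4, a variable segment also below that minimum, was at 0.790 and 0.455 FPKM in that order. Of the constant segments, Tcrg-C2 was at 3.57 and 4.94 FPKM and Tcrg-C1 at 3.76 and 4.71 FPKM. Tcrg-C4, the 1 measured marker that was higher, was at 5.36 and 4.74 FPKM. Trdc, the constant segment of the delta chain, was at 1.76 FPKM in Nrn1-/- cells and 1.85 FPKM in Nrn1+/- cells, against 590 and 682 FPKM for Trac, the alpha chain constant segment. On the list for innate lymphoid cells, 1 gene was higher and 8 lower of 9 measured. Most of these genes are also used by T cells, and Il22 itself is among them. Lta, the 1 higher gene, had the highest level of the list, at 279 FPKM in Nrn1-/- cells and 213 FPKM in Nrn1+/- cells. Among the lower genes, Nrp1 was at 17.6 FPKM in Nrn1-/- cells and 26.5 FPKM in Nrn1+/- cells, and Cxcr5 at 8.96 and 9.18 FPKM. Kit was at 2.39 FPKM in Nrn1-/- cells and 4.16 FPKM in Nrn1+/- cells, and Ncr1 at 0.810 and 1.45 FPKM. B cell markers summed to 8.64 FPKM in Nrn1-/- cells and 6.11 FPKM in Nrn1+/- cells, CD8 T and NK cell markers to 12.2 and 13.0 FPKM, and myeloid markers to 18.3 and 25.8 FPKM, mostly Fcer1g. The part of such cells in the Il17a, Il17f and Il22 differences was not tested, and in bulk RNA fewer cells of a type and less RNA per cell cannot be told apart.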

How the data were processed

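Poly(A) RNA of sorted cells was sequenced, 1 library per genotype. The deposited values are FPKM per gene, computed by the authors; the unit was inferred from the values and the tools. Per the submitters' processing notes, TopHat, Cuffdiff, Cuffnorm and FastQC were used with the builds mm10 and GRCm38. The sources used here do not give the annotation or any scaling of the libraries. The members and lists were chosen with earlier results of these data known. Rows sharing a symbol (82 symbols) were summed. Positions, 1-based, are from GENCODE M21 on GRCm38, where 46000 of 46511 identifiers matched without version. FPKM was multiplied by transcript length, less 200 bases in the Nrn1-/- and 220 bases in the Nrn1+/- library. The product fell within 0.1 of whole multiples of the step for 96.0% of 525 and 97.1% of 543 single-transcript genes. The bases removed and the step were chosen to maximise these same shares. The 20% that chance gives holds for a step fixed beforehand, so it is not the chance level here. Ratio intervals are exact binomial (Clopper-Pearson) on the fragments. Cuffnorm may scale libraries, so 4 scalings were tried among 9 alternatives. Calculations used Python 3.11.15 with numpy 2.4.6, pandas 2.3.3 and scipy 1.17.1, and the ratio was tested on simulated data. Named were all 10 genes, list members beyond 1.5-fold, all of short lists, sort genes and leading markers. Other list genes (Batf, Irf4, Stat3, Socs3, Ccr6, Il1r1, Lif, Arnt and the like) were named for their known role after their values were seen. Some list and sort genes are not reported here by name.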

Additional observations from a re-analysis of the deposited data

How the results depend on the processing

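No paired analysis was possible because each genotype has 1 library, and for the same reason no library could be left out. Il17a and Il17f were at least 1.5-fold lower under all 9 alternatives. The count of members lower by 1.5-fold was 2 as reported. A pseudocount of 0.1 FPKM and equal sums over protein-coding rows each gave 3, with Il22 added. Equal sums over all rows gave 4, with Il22 and Il6st added. Of all 12344 genes tested, 651 were 1.5-fold lower as reported, and 972, 1254 and 2179 in these 3 settings in that order. At 2-fold lower the count of members was 0 as reported, 1 with a pseudocount of 0.1 FPKM, 1 with equal sums over protein-coding rows and 2 with equal sums over all rows. The 2-fold share of all genes was not computed in these settings. The members' median log2 ratio, -0.29 as reported, was -0.22 with a pseudocount of 5 FPKM, -0.21 with no filter, -0.37 with a minimum mean of 5 FPKM, -0.30 with upper-quartile scaling, -0.30 after centring, -0.41 with equal sums over protein-coding rows and -0.57 over all rows. Genes at least 1.5-fold lower, 651 as reported, numbered 272 with a pseudocount of 5 FPKM, 432 with a minimum mean of 5 FPKM, 1254 with equal sums over protein-coding rows and 2179 over all rows. Genes at least 1.5-fold higher, 926 as reported, numbered 557 with a pseudocount of 5 FPKM and 408 with equal sums over all rows. The cause of these shifts was not tested beyond what each setting does by construction. No member that was 1.5-fold lower changed sign. Depth limits Il22, Il23r and Il17re most, with about 45 to 163 fragments per library.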

Other observations

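Apart from Il17a and Il17f, which neighbour each other, the measured neighbours of the cytokine genes were Mcm3 and Mdm1, both higher in Nrn1-/- cells as deposited. Mcm3, a subunit of the replicative helicase whose nearer end lies 12.35 kb from Il17f on chromosome 1, was at 154 FPKM in Nrn1-/- cells and 81.4 FPKM in Nrn1+/- cells, while Pkhd1, on the far side of Il17a, was listed at 0 in both libraries. Mdm1, 35.9 kb from Il22, was at 4.28 FPKM in Nrn1-/- cells and 2.64 FPKM in Nrn1+/- cells. Il17rc begins 0.668 kb after Il17re on the same strand, at 0.161 FPKM in Nrn1-/- cells and 0.218 FPKM in Nrn1+/- cells. Kdm5a, a histone demethylase gene next to Il17ra, was at 24.4 FPKM in Nrn1-/- cells and 31.0 FPKM in Nrn1+/- cells, and Il31ra, a cytokine receptor gene next to Il6st, was under 0.05 FPKM in both. With 1 library per genotype none of these differences was tested.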
